A study of Mus musculus with 16 samples.

Results

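Hepatic stellate cell and fibroblast markers were described in liver tumours of Axin1-deleted mice, in the non-tumoral liver next to them and in control liver. The genes came from a named list of 32 markers, matched by gene symbol to the array's annotation. The array measured 31 of them among 23279 genes, and Fbn1 was not analysed here. They fell into 5 groups by role: 12 markers of stellate cell identity, 4 contractile genes, 4 PDGF receptor and pericyte genes, 7 matrix genes and 4 surface, filament and cytokine genes of fibroblasts.

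RNA of whole liver or tumour from male mice aged 16 months was profiled on 16 arrays. The control group was liver of 3 mice without the deletion (mice 10, 11 and 12), whose genotype the labels describe no further. The adjacent group was non-tumoral liver of 5 Axin1-deleted mice (121, 124, 123, 1931 and 81), and the tumour group was 8 tumours of 6 Axin1-deleted mice (121, 90, 124, 123, 93 and 81). Deleted mice came from crossing Axin1 fl/fl animals with the Alfp-Cre line, in which Cre recombinase is made in embryonic hepatocytes, so stellate cells and fibroblasts are not the cells that the labelled driver targets. Mouse 121 gave 3 tumours (an unnumbered one, tumour 2 and tumour 3), whose mean stood for the animal. By mouse number, both a tumour and adjacent liver came from 4 mice.

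Hepatic stellate cells lie between hepatocytes and the sinusoidal endothelium, where they store vitamin A as retinyl esters and supply hepatocytes with growth factors such as HGF. In injured liver, TGF-beta and PDGF turn them into contractile, matrix-producing myofibroblasts, which lose stored retinoid and gain smooth muscle actin. Fibroblasts of this kind are also a regular part of the stroma of liver tumours. All values are of bulk tissue, in which fewer cells of a type and less RNA per cell cannot be told apart.

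Axin1 itself lay between 5.07 and 5.48 on the log2 scale in the 3 controls and between 3.90 and 4.81 on all 13 arrays of deleted mice, with no overlap. Array medians ran from 4.37 to 4.5, and precision is limited by how many arrays each group has. Genes were tested with limma over all 23279 genes with Benjamini-Hochberg adjustment, with an adjusted p under 0.05 taken as the threshold. The hepatocyte markers had a summed signal (log2 of the summed linear values of 8 genes) of 14.6 to 14.8 in controls, 14.6 to 14.8 in adjacent livers and 14.3 to 14.7 in tumours. Its brightest genes, such as Ttr (12.4 to 12.8 in tumours), lie near the highest value on any array (12.85), so the sum says little about the dimmer ones. Among these, Cebpa, a hepatocyte transcription factor, was 0.49 lower in tumours than in adjacent liver on the log2 scale (limma adjusted p = 0.188). All 6 tumour mice lay under its adjacent mean. The amino acid enzyme Tat was 9.97 in the tumour of mouse 123 against 10.8 to 11.6 in adjacent livers, but 3 of 6 tumour mice lay above the adjacent mean. Its log2 difference was -0.36 (SE 0.26, limma adjusted p = 0.563), and that of the transcription factor Hnf4a was -0.08 (SE 0.13). Of the stellate markers, Gfap, a glial filament protein used as a marker of quiescent stellate cells, did not exceed 4.11 on any array, under the median of all values on the arrays (4.43). Fap, a serine protease of activated fibroblasts, did not exceed 3.65. All other markers exceeded that median on at least 1 array.

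In tumours 9 of the 12 stellate identity markers had a mean under that of adjacent liver and 15 of the other 19 markers a mean above it, but no single marker passed the adjusted threshold. Of all genes 13039 were lower and 10240 higher. The 19 are not all markers of activation, since Dcn and Pdgfra are also made by quiescent cells or other fibroblasts, and some of the differences counted were close to 0, such as that of Des (-0.01). The median log2 difference between tumour and adjacent liver was -0.34 over the 12 identity markers and 0.37 over the other 19, against -0.03 over all genes. None of the 31 passed limma at an adjusted p under 0.05, where 36 of all genes (0.155%) did. At an unadjusted p under 0.05, 7 markers were higher in tumours (Acta2, Pdgfrb, Sparc, Thy1, Fap, Vim and Tgfb1), all of them outside the identity group, while 6.95% of all genes were. Another 5 were lower (Lrat, Hgf, Hand2, Lhx2 and Dcn), against 8.32% of all genes, and 4 of these were identity markers. For 0 of 31 markers did tumour and adjacent values, 1 per mouse, fail to overlap, against 1.12% of all genes higher and 1.11% lower. Such shares were counted for tumour against adjacent liver only. Where a marker below had all tumours above or below all 3 controls, no share of all genes stands beside it.

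**Figure D1:**
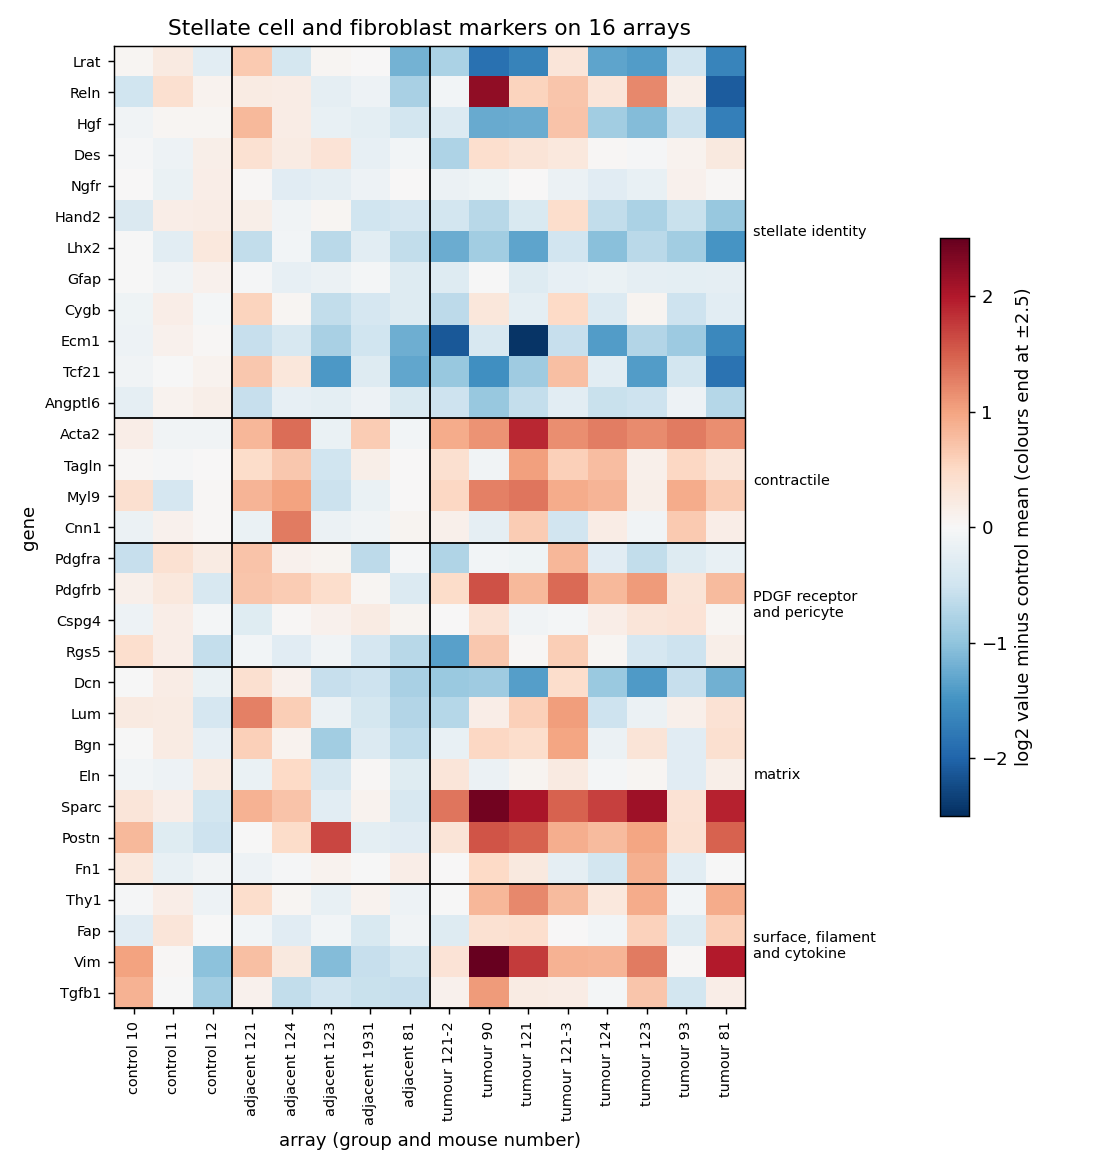
Log2 value of each of 31 markers (rows, by role) on each of 16 arrays (columns, by group) minus the mean of the 3 control arrays; colours end at ±2.5. Lrat, Hgf, Lhx2, Ecm1 and Dcn are mostly blue in the tumour columns and Acta2, Pdgfrb, Sparc and Vim mostly red. Tumour 3 of mouse 121 (121-3) is above the control mean, thus red, in Lrat, Hgf and Dcn. Among the other tumours, that of mouse 93 is palest in Lrat and tumour 2 of mouse 121 (121-2) in Hgf.

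**Figure D2:**
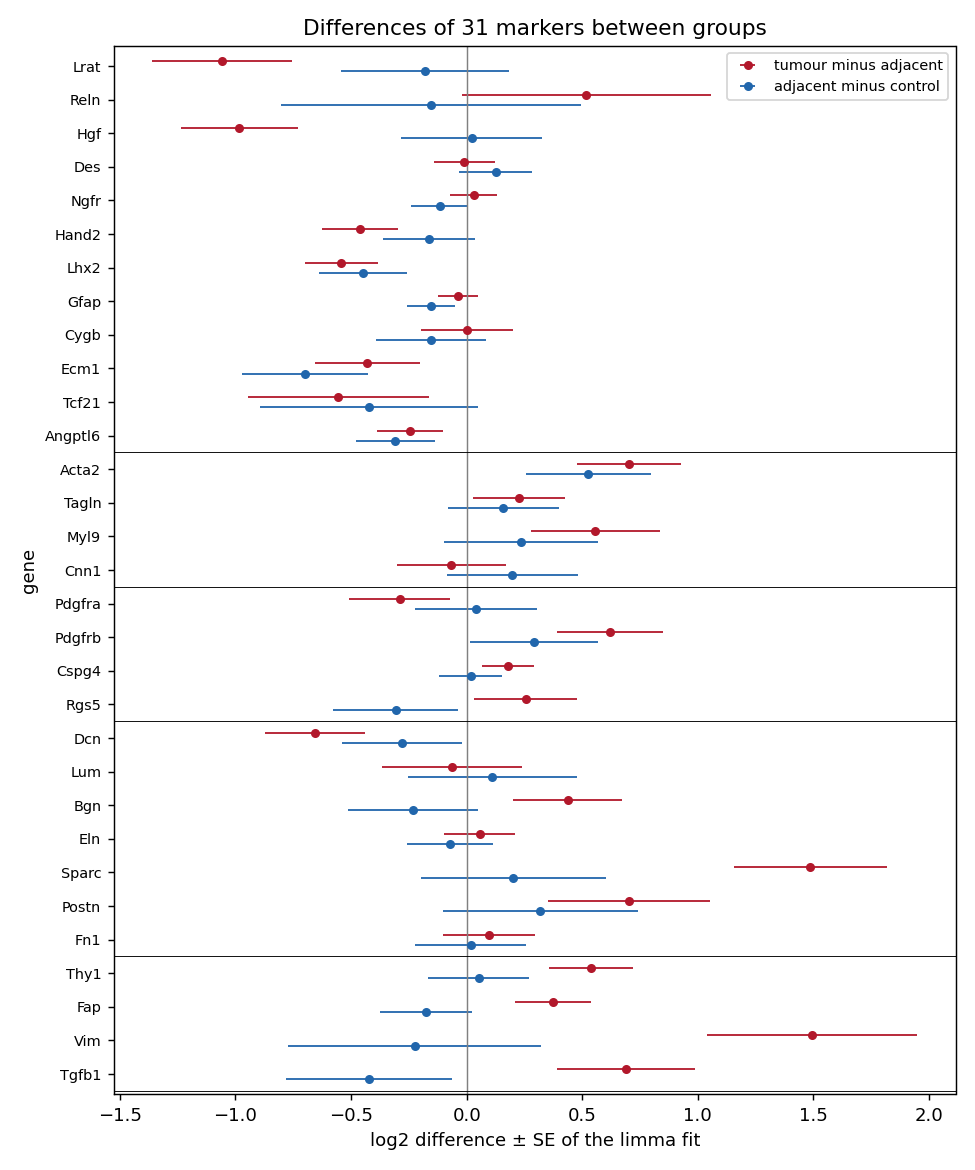
Log2 difference between groups with its standard error from the limma fit, for tumour minus adjacent (red, upper) and adjacent minus control (blue, lower), over 3 control, 5 adjacent and 6 tumour mice. Vim (1.49) and Sparc (1.49) have the highest tumour differences among the 31 markers and Lrat (-1.06) the lowest.

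Lrat makes the retinyl esters that stellate cells store. Its log2 value was 5.96 to 6.45 in the 3 controls. In adjacent liver it was 6.88 in mouse 121, 6.28 in mouse 123, 6.24 in mouse 1931, 5.79 in mouse 124 and 5.04 in mouse 81. The 8 tumours ran from 4.37 to 6.52 with a median of 4.87. The 6 lowest tumours lay at or under 5.44, which only the adjacent liver of mouse 81 also did, and the remaining pair, tumour 3 of mouse 121 (6.52) and the tumour of mouse 93 (5.74), fell among the adjacent livers. The mean over mice was 4.99 ± 0.53 (SD, n = 6) in tumours and 6.05 ± 0.68 (SD, n = 5) in adjacent liver, a 2.08-fold lower level (log2 difference -1.06, SE 0.30, limma adjusted p = 0.123), and all 6 tumour mice lay under the adjacent mean.

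Hgf, the growth factor that stellate cells supply to hepatocytes, was tightly grouped in controls at 5.98 to 6.13. Adjacent livers ran from 5.63 in mouse 81 to 6.89 in mouse 121, and tumours from 4.37 to 6.79 with a median of 5.10. The tumour of mouse 81 was lowest and tumour 3 of mouse 121 highest, beside the adjacent liver of the same animal at 6.89. Over mice the tumour mean was 5.12 ± 0.51 (SD, n = 6) against 6.10 ± 0.50 (SD, n = 5), a log2 difference of -0.98 (SE 0.25, limma adjusted p = 0.0929), with all 6 tumour mice under the adjacent mean.

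Lhx2 and Hand2 are transcription factors that mark stellate cells, and loss of Lhx2 is known to activate them. Lhx2 was 5.15 to 5.67 in controls, 4.72 to 5.33 in adjacent livers and 3.94 to 4.93 in tumours (median 4.44). It was lower in adjacent liver than in control (log2 difference -0.45, SE 0.19, limma adjusted p = 0.999) and lower again in tumours than in adjacent liver (-0.54, SE 0.16, limma adjusted p = 0.127), and no tumour reached the lowest control. Against control the tumour difference of Lhx2 was -0.99 (SE 0.18, limma adjusted p = 0.0674). Hand2 was 4.57 to 5.10 in controls, 4.42 to 5.07 in adjacent livers and 3.97 to 5.35 in tumours (median 4.33). Its highest value of all arrays was in tumour 3 of mouse 121, and the other 7 tumours lay at or under 4.53. The log2 difference of Hand2 was -0.46 (SE 0.17, limma adjusted p = 0.193).

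The remaining identity markers differed among themselves. Ecm1, a matrix protein that restrains TGF-beta activation in liver, was 8.98 to 9.20 in controls, and every adjacent liver (7.89 to 8.70) and every tumour (6.65 to 8.70) lay below that range. Its lowest values were in the unnumbered tumour (6.65) and tumour 2 (6.99) of mouse 121, while tumour 3 of the same liver stood at 8.54. Ecm1 was 1.62-fold lower in adjacent liver than in control and 2.19-fold lower in tumour than in control, at limma adjusted p = 0.999 and 0.113. Angptl6, an angiopoietin-like secreted protein, was 6.40 to 6.77 in controls, 6.05 to 6.50 in adjacent livers and 5.68 to 6.51 in tumours.

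Tcf21, a transcription factor of mesenchymal cells, spread widely in deleted livers. It was 5.72 to 5.91 in controls, 4.37 to 6.48 in adjacent livers and 3.96 to 6.56 in tumours. Reln, a secreted glycoprotein of stellate and lymphatic endothelial cells, had the widest tumour range of the 31 markers, from 4.60 in mouse 81 to 8.89 in mouse 90, against 6.18 to 7.08 in controls and 5.86 to 6.89 in adjacent livers. Its direction thus depended on the tumour, and the group difference was 0.52 with an SE of 0.54.

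Desmin (Des), an intermediate filament of stellate and muscle cells, ran from 4.46 to 5.05 in adjacent livers and from 3.90 to 5.09 in tumours. Cytoglobin (Cygb), an oxygen-binding protein of stellate cells, ran from 5.14 to 6.32 and from 5.11 to 6.26, and Ngfr, the low-affinity neurotrophin receptor, from 4.02 to 4.33 and from 4.03 to 4.4. Their tumour differences (-0.01, 0.00 and 0.03) were smaller than their standard errors of 0.13, 0.20 and 0.10, and that of Cygb changed sign under quantile normalization. Gfap was 3.92 to 4.11 in controls, 3.68 to 3.97 in adjacent livers and 3.69 to 3.99 in tumours, all dim.

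Among the contractile genes, Acta2, the smooth muscle actin by which myofibroblasts are recognised, differed most between tumours and controls. It was 6.39, 6.40 and 6.66 in the 3 controls. Adjacent livers stood at 6.32 (mouse 123), 6.41 (mouse 81), 7.12 (mouse 1931), 7.32 (mouse 121) and 7.88 (mouse 124), and tumours ran from 7.42 to 8.37 with a median of 7.66. Every tumour was above every control, and the adjacent livers reached from the control range into that of the tumours. The 5 tumours outside mouse 121 lay within 7.60 to 7.78, a narrower spread than the adjacent livers showed. Tumours averaged 7.71 ± 0.08 (SD, n = 6) and adjacent livers 7.01 ± 0.65 (SD, n = 5), a log2 difference of 0.70 (SE 0.22, limma adjusted p = 0.153). Against control it was 1.23 (SE 0.26, limma adjusted p = 0.0998).

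Myl9, a regulatory light chain of myosin, was 5.04 to 5.86 in controls, 4.92 to 6.48 in adjacent livers and 5.61 to 6.80 in tumours (median 6.35), with a log2 difference between tumour and adjacent liver of 0.56 (SE 0.28, limma adjusted p = 0.360). Tagln, an actin-binding protein of smooth muscle, was 5.07 to 5.13 in controls, 4.61 to 5.79 in adjacent livers and 5.02 to 6.13 in tumours, a log2 difference of 0.23 (SE 0.20). Calponin (Cnn1) was at most 4.16 in tumours, under the 4.82 of the adjacent liver of mouse 124, and its log2 difference was -0.07 (SE 0.24), or 0.21 without that liver. The adjacent liver of mouse 124 was the highest of the 5 adjacent livers in all 4 contractile genes, with Acta2 above all but 1 of the tumours.

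The promoters of contractile genes are known for elements that bind serum response factor (the CArG box) and TEAD factors (the MCAT element, CATTCC). Both strands of RefSeq promoters (GRCm38.p6, 250 bases before to 50 after a gene's start) were searched, and 22 of the 31 markers had an entry. Tagln was not among them. The CArG box was searched only as the exact pattern CCWWWWWWGG, W being A or T. That pattern stood in 1.63% of 32851 promoters and in 1 marker, Myl9, 161 to 152 bases before its start. Near matches were not counted, such as ccctatatgg and ccttgtttgg in the Acta2 promoter, each 1 base off the pattern. The MCAT element stood in 14.7% of all promoters and in 2 markers, Acta2 (146 to 141 bases before) and Lrat (208 to 203 bases before). Acta2 and Myl9 were higher in tumours than in control and Lrat was lower, none past the adjusted threshold. The MCAT element stood in 2 of 25 marker promoters, which is not above its share of all promoters. No link to direction is read from it. The 3 promoters are shown with the matched letters in capitals, to place the elements beside these values.
Acta2 promoter, chr19:34255324-34255623 (- strand): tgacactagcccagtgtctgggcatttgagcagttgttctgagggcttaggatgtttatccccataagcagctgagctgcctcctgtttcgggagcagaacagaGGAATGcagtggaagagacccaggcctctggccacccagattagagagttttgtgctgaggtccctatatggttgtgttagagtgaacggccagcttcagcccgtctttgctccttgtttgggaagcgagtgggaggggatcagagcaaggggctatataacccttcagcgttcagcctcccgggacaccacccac
Myl9 promoter, chr2:156775214-156775513 (+ strand): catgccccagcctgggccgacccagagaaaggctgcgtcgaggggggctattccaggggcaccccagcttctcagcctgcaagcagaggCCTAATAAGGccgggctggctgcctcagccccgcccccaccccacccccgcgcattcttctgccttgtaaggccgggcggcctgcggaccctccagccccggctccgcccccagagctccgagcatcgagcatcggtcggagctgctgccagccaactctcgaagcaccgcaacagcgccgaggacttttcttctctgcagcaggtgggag
Lrat promoter, chr3:82903925-82904224 (- strand): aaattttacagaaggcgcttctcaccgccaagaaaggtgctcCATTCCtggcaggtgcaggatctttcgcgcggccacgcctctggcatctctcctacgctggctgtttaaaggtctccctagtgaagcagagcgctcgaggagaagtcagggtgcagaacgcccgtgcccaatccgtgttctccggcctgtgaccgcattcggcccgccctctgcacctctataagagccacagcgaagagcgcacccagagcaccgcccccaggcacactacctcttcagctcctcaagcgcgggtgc

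The PDGF receptors differed in opposite directions. Pdgfrb, the receptor through which PDGF drives stellate cell growth, was 5.0 to 5.67 in controls, 5.06 to 6.09 in adjacent livers and 5.73 to 6.99 in tumours (median 6.20). Every tumour was above every control, with the tumour of mouse 90 highest and that of mouse 93 lowest. The log2 difference from adjacent liver was 0.62 (SE 0.23, limma adjusted p = 0.204) and from control 0.91 (SE 0.27, limma adjusted p = 0.175). Pdgfra, which marks portal and other fibroblasts more than activated stellate cells, was 3.71 to 4.66 in controls, 3.63 to 5.01 in adjacent livers and 3.53 to 5.12 in tumours (median 4.05), a log2 difference of -0.29 (SE 0.22, limma adjusted p = 0.58). Of the 8 tumours only tumour 3 of mouse 121 exceeded 4.22 in Pdgfra.

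The pericyte genes differed less. Rgs5, a regulator of G protein signalling, was 5.97 to 6.98 in controls, 5.88 to 6.49 in adjacent livers and 5.21 to 7.23 in tumours, and both its lowest and its second highest tumour were from mouse 121. Cspg4, the NG2 proteoglycan, was 3.97 to 4.27, 3.79 to 4.29 and 4.01 to 4.45 in the same order. Their log2 differences were 0.26 (SE 0.22) and 0.18 (SE 0.11).

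Of the matrix genes, Sparc, a collagen-binding glycoprotein of remodelling tissue, had the smallest p of the 31 markers. It was 7.69, 8.31 and 8.44 in controls. Adjacent livers stood at 7.74 (mouse 81), 7.88 (mouse 123), 8.23 (mouse 1931), 8.86 (mouse 124) and 9.03 (mouse 121), and tumours ran from 8.51 to 10.55 with a median of 9.96. Only the tumour of mouse 93 (8.51) overlapped the adjacent livers, and the other 7 tumours lay at or above 9.48. Tumours averaged 9.84 ± 0.71 (SD, n = 6) and adjacent livers 8.35 ± 0.58 (SD, n = 5), a 2.80-fold higher level (log2 difference 1.49, SE 0.33, limma adjusted p = 0.0718). Sparc passed the threshold in 5 of 23 alternatives, among them a random replicate block for the mouse (adjusted p = 0.0385), and its adjusted p ran from 0.0067 to 0.192 over all of them.

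Dcn, a small proteoglycan made in quantity by quiescent stellate cells and fibroblasts, lay lower in tumours. It was 9.10 to 9.45 in controls, 8.46 to 9.68 in adjacent livers and 7.86 to 9.70 in tumours (median 8.35). Tumour 3 of mouse 121 (9.70) was level with the adjacent liver of that mouse (9.68), and the 7 others lay under every control. The tumour mean was 8.34 ± 0.32 (SD, n = 6) against 8.99 ± 0.52 (SD, n = 5), a log2 difference of -0.66 (SE 0.22, limma adjusted p = 0.162).

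Postn, a matricellular protein of activated fibroblasts, was 4.55 to 5.89 in controls, 4.79 to 6.73 in adjacent livers and 5.39 to 6.65 in tumours (log2 difference 0.70, SE 0.35, limma adjusted p = 0.360). The adjacent liver of mouse 123 held its highest value of all arrays. Biglycan (Bgn), a small proteoglycan related to decorin, was 9.03 to 9.44 in controls, 8.37 to 9.82 in adjacent livers and 8.96 to 10.23 in tumours (log2 difference 0.44, SE 0.23, limma adjusted p = 0.403). Lumican (Lum), elastin (Eln) and fibronectin (Fn1) differed by -0.06, 0.06 and 0.10 between tumour and adjacent liver, each less than its standard error (0.30, 0.15 and 0.20). Fn1, which hepatocytes also make, ran from 10.50 to 11.84 over the tumours, against 10.82 to 11.11 in adjacent livers.

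All 4 surface, filament and cytokine genes were higher in tumours at an unadjusted p under 0.05, none past the adjusted threshold. Thy1, a surface glycoprotein of fibroblasts and T cells, was 4.88 to 5.17 in controls, 4.82 to 5.45 in adjacent livers and 4.94 to 6.21 in tumours (median 5.82). The tumour of mouse 93 (4.94) and tumour 2 of mouse 121 (5.0) lay within the control range, and 5 of the other 6 tumours lay above every adjacent liver. Its log2 difference was 0.54 (SE 0.18, limma adjusted p = 0.171). Fap, dim on every array, was 2.69 to 3.0 in adjacent livers and 2.74 to 3.65 in tumours (log2 difference 0.37, SE 0.16).

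Vim, the intermediate filament of mesenchymal cells and leukocytes, was 8.53 in control 10, 7.54 in control 11 and 6.49 in control 12. Adjacent livers ran from 6.44 in mouse 123 to 8.28 in mouse 121, and tumours from 7.55 in mouse 93 to 10.02 in mouse 90 with a median of 8.60. The tumours thus reached well above both other groups while their lower end overlapped them. The log2 difference from adjacent liver was 1.49 (SE 0.45, limma adjusted p = 0.138). Tgfb1, the cytokine that activates stellate cells, was 6.94, 6.06 and 5.21 in controls 10, 11 and 12, 5.46 to 6.17 in adjacent livers and 5.62 to 7.13 in tumours (log2 difference 0.69, SE 0.30, limma adjusted p = 0.283). Control 10 also had the highest macrophage signal of all 16 arrays, 12.1 as the log2 of the summed values of 9 genes, against 8.76 in the lowest control. Its part in the control spread of Vim and Tgfb1 was not tested.

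**Figure D3:**
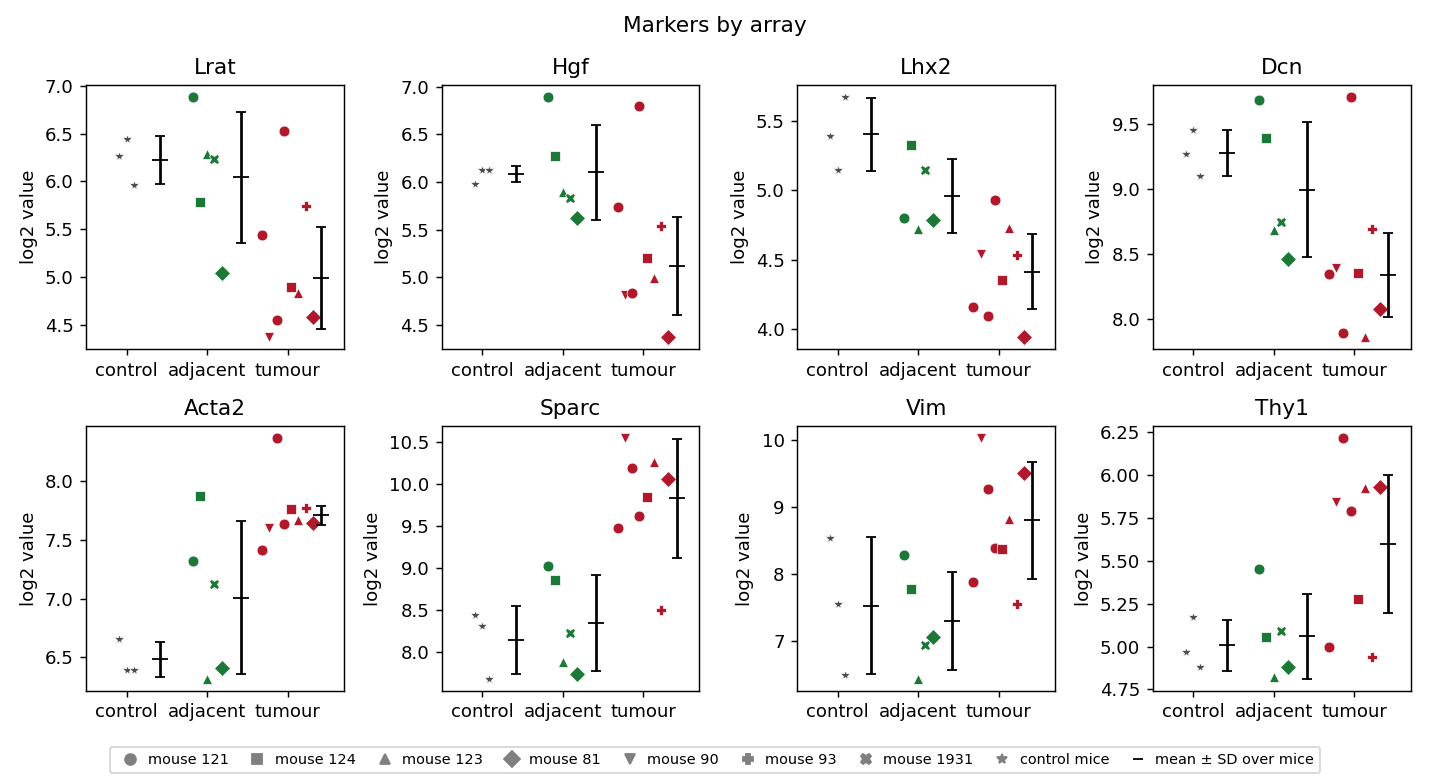
Log2 value of 8 markers on each array, by group; the marker shape gives the mouse, and the bar beside each group is the mean ± SD over mice (3 control, 5 adjacent, 6 tumour, the tumours of mouse 121 averaged). In Lrat, Hgf and Dcn tumour 3 of mouse 121 lies near the upper end of the adjacent livers, at 6.52, 6.79 and 9.70. Tumour 2 of that mouse also lies within the adjacent range in Lrat (5.44) and Hgf (5.74). In Sparc the tumour of mouse 93 lies apart from the other tumours at 8.51.

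The tumours differed from one another in how far each set lay from control. As the mean of the 12 identity markers minus the control mean, the tumour of mouse 81 was lowest (-1.02), followed by tumour 2 (-0.70) and the unnumbered tumour (-0.68) of mouse 121 and the tumours of mice 124 (-0.55), 123 (-0.48), 90 (-0.40) and 93 (-0.37). Tumour 3 of mouse 121 was at 0.17, above all 3 controls and all 5 adjacent livers. The adjacent livers themselves ran from -0.59 in mouse 81 to 0.14 in mouse 121.

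The other 19 markers gave another order. Their mean minus control was highest in the tumour of mouse 90 (0.71), the unnumbered tumour (0.66) and tumour 3 (0.62) of mouse 121 and the tumour of mouse 81 (0.52), and lowest in tumour 2 of mouse 121 (0.03) and the tumour of mouse 93 (0.10). So the tumours that were low in identity markers were not all high in the others. Tumour 2 of mouse 121 was low in the first set and near control in the second, and tumour 3 of the same liver was at control level or above in both.

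**Figure D4:**
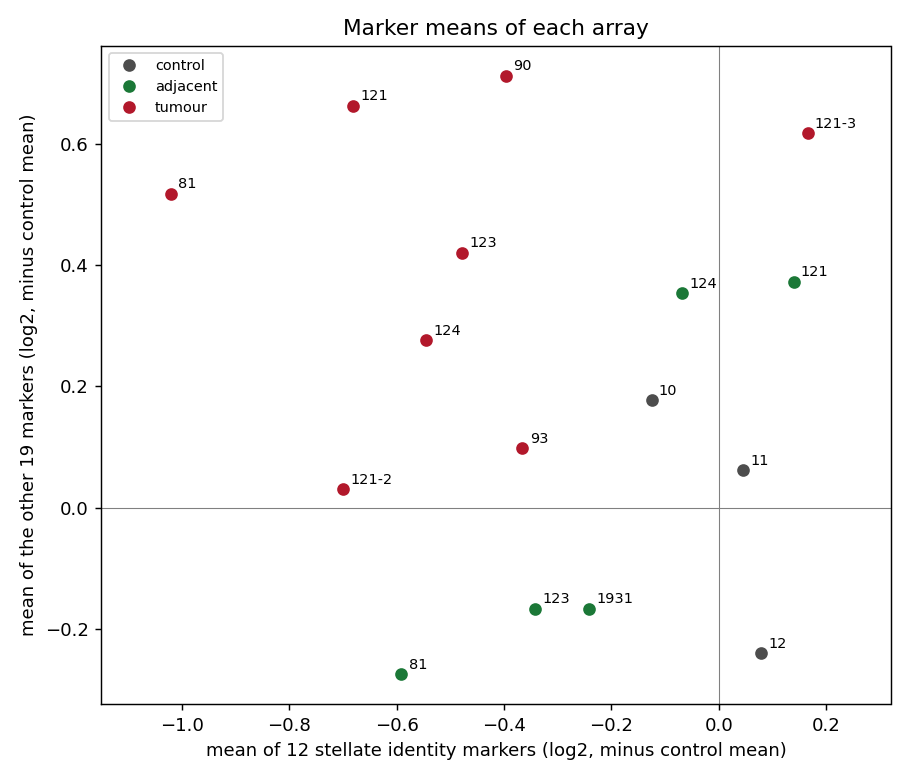
Mean of the 12 stellate identity markers (horizontal) and of the other 19 markers (vertical) on each of 16 arrays, both as log2 value minus the mean of the 3 controls; points carry the mouse number. The 3 tumours of mouse 121 (121, 121-2, 121-3) lie far apart, from -0.70 to 0.17 on the horizontal axis and from 0.03 to 0.66 on the vertical.

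Single tumours stood out across many markers. The tumour of mouse 90 was the highest of the 8 tumours in 11 of 31 markers and tumour 3 of mouse 121 in 10. Tumour 2 of mouse 121 and the tumour of mouse 93 were each the lowest in 8 markers, for the latter all outside the identity group. The tumour of mouse 93 lay within the range of the 5 adjacent livers for 24 of 31 markers, and that of mouse 90 for 9. The 3 tumours of mouse 121 spread as widely as tumours of different animals: their SD exceeded that of the 5 other tumours in 19 of 31 markers, with medians of 0.498 and 0.353. These counts by tumour were made for the markers only. No share of all genes stands beside them, so they do not set the markers apart from other genes.

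With the tumour of mouse 93 left out, 5 of the 31 markers passed the adjusted threshold between tumour and adjacent liver, and 743 of all genes (3.19%) did. Lrat and Hgf were then lower, with log2 differences of -1.21 and -1.07 (limma adjusted p = 0.0436 and 0.0445). Sparc, Vim and Thy1 were higher, by 1.75, 1.74 and 0.67 (limma adjusted p = 0.0067, 0.046 and 0.0359). The library was left out as 1 of 14 in turn, and nothing in the labels sets it apart. None of the 13 others, left out in turn, brought a marker past the threshold in this comparison.

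Within the 4 mice that gave both tissues, 5 markers were lower in the tumour than in the liver beside it in every animal (Lrat, Hgf, Hand2, Pdgfra and Dcn), and 13.0% of all genes were. Another 7 were higher in every animal (Tagln, Pdgfrb, Sparc, Thy1, Fap, Vim and Tgfb1), against 9.97% of all genes. For mouse 121 the tumour value is the mean of its 3 tumours. Of these markers, only Lrat, Hgf and Sparc had all 3 of them on the stated side of the adjacent liver. Vim was 7.88 in tumour 2 against 8.28 in that liver, and Dcn was 9.70 in tumour 3 against 9.68. For Sparc the tumour of the same mouse was higher by 0.74 in mouse 121, 0.99 in mouse 124, 2.33 in mouse 81 and 2.39 in mouse 123 on the log2 scale. For Hgf the differences were -1.10, -1.06, -1.26 and -0.90 in the same order of mice, a narrower span than for Sparc. Acta2 was higher in mice 121, 81 and 123 (0.49, 1.23 and 1.35) but not in mouse 124 (-0.11), whose adjacent liver was already high.

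Between adjacent and control liver, no gene passed the adjusted threshold in limma (0%), with 375 genes higher and 684 lower at an unadjusted p under 0.05. No marker was higher at that level, where 1.61% of all genes were, and 2 were lower, Lhx2 and Ecm1, where 2.94% were. The median difference was -0.16 over the identity markers, 0.04 over the 19 others and -0.01 over all genes. With 1 mouse of a group left out at a time, Lhx2 no longer had a p under 0.05 without control 10 or the adjacent liver of mouse 121 or 123, Ecm1 without control 11, and both without control 12 or the adjacent liver of mouse 81, while both stayed under it in the other such fits.

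Tumour and control were compared with the same tumour arrays, so the values stand beside those above and add no independent count. No marker passed the adjusted threshold, where 6 genes (0.0258%) did. At an unadjusted p under 0.05, 7 markers were higher (Acta2, Myl9, Pdgfrb, Sparc, Postn, Thy1 and Vim), against 5.65% of all genes, and 7 lower (Lrat, Hgf, Hand2, Lhx2, Ecm1, Angptl6 and Dcn), against 6.88%. The medians were -0.59 over identity markers, 0.20 over the others and -0.04 over all genes. Lhx2 and Ecm1 passed without the tumour of mouse 90, and Lhx2 and Sparc without that of mouse 93. Of all 23279 genes, 58 higher and 18 lower passed in the first of these fits, and 149 higher and 93 lower in the second.

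Genes that work with these markers were read from 7 further lists, and none passed the adjusted threshold between tumour and adjacent liver. Of all genes, 6.95% were higher and 8.32% lower in that comparison at an unadjusted p under 0.05. The counts of every list below are to be read against these shares. All 8 collagen genes measured were higher in tumours (median log2 difference 0.54), as were 10240 of all 23279 genes, and 3 of the 8 at an unadjusted p under 0.05. Those were the fibrillar collagens Col1a1 (tumours 6.55 ± 0.98, SD, n = 6, adjacent livers 5.29 ± 0.39, SD, n = 5), Col1a2 and Col3a1, with log2 differences of 1.25, 1.09 and 1.05 and limma adjusted p of 0.137, 0.140 and 0.169. The tumour of mouse 93 had the lowest value of the 8 tumours in each of them. Col6a3, a chain of collagen VI, differed by 0.68 (limma adjusted p = 0.384).

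In the TGF-beta pathway 3 of 19 genes were higher and 2 lower at an unadjusted p under 0.05, against 6.95% and 8.32% of all genes. The type II receptor Tgfbr2 differed by 1.08 and the ligand Tgfb2 by 0.56, while the inhibitory Smad7 and Smad6 differed by -0.58 and -0.52 (limma adjusted p = 0.103, 0.154, 0.220 and 0.279). Of the 4 PDGF ligands, 3 were higher at that level. Pdgfa was at 5.6 ± 0.22 (SD, n = 6) in tumours and 4.96 ± 0.13 (SD, n = 5) next to them, with every tumour (5.23 to 5.85) above every adjacent liver (4.81 to 5.09) and a limma adjusted p of 0.0634. Pdgfb and Pdgfd differed by 0.50 and 0.40, and Pdgfc by -0.12.

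Retinoid handling genes had a median of -0.14 over 10 genes. The retinoic acid hydroxylase Cyp26b1 differed by -0.51 and the retinal reductase Dhrs3 by -0.66 (limma adjusted p = 0.124 and 0.243), the 2 that were lower at an unadjusted p under 0.05. Cyp26a1, a related hydroxylase, and Aldh1a1, a retinal dehydrogenase, differed by -0.84 and -0.25 with standard errors of 0.57 and 0.27.

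Of 10 other stellate markers, 5 were lower and 1 higher at an unadjusted p under 0.05. The VIP receptor Vipr1, the collectin Colec10, the Wnt amplifier Rspo3 and the ligand Bmp5 differed by -0.88, -1.26, -1.35 and -0.89 between tumour and adjacent liver (limma adjusted p = 0.0544, 0.0643, 0.084 and 0.136). Colec10 was 5.21 to 6.17 in controls, 4.76 to 5.36 in adjacent livers and 3.03 to 4.77 in tumours. Against control it was the only one of these list genes past the threshold (log2 difference -2.07, SE 0.31, limma adjusted p = 0.0385). It stayed past it in 10 of 22 alternatives, with adjusted p from 0.00486 to 0.156. Of the 14 fits that left out 1 mouse of a group, it passed in those without tumour 90, tumour 93, adjacent liver 121 or adjacent liver 123.

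Portal fibroblast and mesothelial genes were mostly dim, with 8 of 12 under the median on every array. Gas1, a growth arrest protein, differed by -0.71 and the portal fibroblast ectonucleotidase Entpd2 by 0.98 (limma adjusted p = 0.0736 and 0.127). Fibulin 2 (Fbln2) differed by 0.38 and Clec3b by -0.19. Of 9 smooth muscle genes 3 were higher and 1 lower at an unadjusted p under 0.05: tropomyosin Tpm1 by 1.03, smoothelin (Smtn) by 0.75 and Actg2 by 0.83, and the kinase Mylk by -0.62 (limma adjusted p = 0.0634, 0.116, 0.154 and 0.229).

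Markers of other liver cell types also differed between the same arrays. Of 11 endothelial genes, 4 were higher and 3 lower at an unadjusted p under 0.05, against 6.95% and 8.32% of all genes. None was past the adjusted threshold. Emcn, Cd34 and Pecam1 were higher by 1.69, 1.67 and 1.03. The 3 lower ones, named after their values were seen, were the sinusoidal endothelial genes Clec4g and Stab2 and the angiopoietin receptor Tek, by -2.41, -1.31 and -0.60. Their summed signal (log2) was 10.1 to 10.5 in controls and in adjacent livers and 9.82 to 10.6 in tumours, and no marker of the list stayed under the array median throughout. Of 9 macrophage genes 3 were lower at an unadjusted p under 0.05, the Kupffer cell genes Clec4f, Vsig4 and Cd5l by -1.85, -2.52 and -1.58. Over that list 6 means were lower and 3 higher, those of Cd68, Itgam and Adgre1, by 0.94, 0.74 and 0.24. The summed macrophage signals were 8.76 to 12.1, 9.01 to 10.7 and 8.83 to 10.6 in control, adjacent and tumour. In tumour 3 of mouse 121, where the stellate identity markers were highest, Clec4f (7.73) and Vsig4 (8.96) were also the highest of the 8 tumours. Of 5 cholangiocyte genes Sox9 was higher by 0.89, and the summed signal was 6.93 to 7.15, 6.35 to 6.92 and 6.39 to 7.81. The 8 lymphocyte genes held 0 past an unadjusted p of 0.05 in either direction, with 3 (Cd4, Cd79a and Ms4a1) under the median throughout and sums of 7.08 to 8.76, 7.16 to 9.07 and 7.14 to 8.86. The part of these cells in the stellate and fibroblast values was not tested.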

How the data were processed

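RNA of 16 liver or tumour samples was extracted with Trizol, amplified with the Ovation PicoSL system and labelled with biotin for one-colour arrays, per the labels' protocols. Expression was deposited on a log2 scale. The submitters' processing notes list RMA and Partek as tools. The chip and its probe set definition were not given in the sources used here. The platform annotation paired 23281 of 24479 probe sets with 1 symbol, 0 with several and 1198 with none. For the 2 symbols with 2 probe sets the brighter was used, which left 23279 genes.

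Groups and mouse numbers came from sample titles. The 3 tumours of mouse 121 were averaged, and all 3 groups were fitted together in limma 3.58.1 (R 4.3.3; lmFit, eBayes with an intensity trend, two-sided, Benjamini-Hochberg over all genes; tested on simulated data). Same-numbered tumour and adjacent liver come from the same animal and so are paired, and their deviations from the group means correlated at 0.0349 to 0.0998. The members, gene lists and tests were chosen with earlier results of these data known. Per role the up to 4 markers with the smallest p between tumour and adjacent liver were given in full, the rest by range. Of each further list up to 4 genes, or up to 3 for other cell types, were named by the same p. Other normalization, filters, treatment of mouse 121, blocks and leaving out each mouse of a group were alternatives. The labels name no scan date or other batch, so none was tested.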

Additional observations from a re-analysis of the deposited data

Results flagged for a closer look

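In 62 sets (31 markers in the 5 adjacent livers and in the tumours), the array farthest from its group was compared with the spread of the others. Dixon's criterion was used, which chance meets in about 1 set in 20. It was met in 2 of the 62 sets, which is not above that share. Cnn1 stood at 4.82 in the adjacent liver of mouse 124, against 3.35 to 3.58 in the 4 other adjacent livers. Tgfb1 stood at 6.17 in the adjacent liver of mouse 121, against 5.46 to 5.59 in the 4 others. The same liver had the highest summed lymphocyte signal of all 16 arrays, 9.07 on the log2 scale.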

How the results depend on the processing

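Of 19 markers given in full, 18 kept the direction of their tumour difference under every alternative run for them, and the exception was Cnn1. That was 23 alternatives, or 22 for Cspg4 and Cnn1, which the filter on dim genes left out. Its log2 difference of -0.07 became 0.0227 with the unnumbered tumour of mouse 121 alone, and ran from -0.17 to 0.211 with each mouse of a group left out, being above 0 without tumour 90 (0.00328) and without adjacent liver 124 (0.211). The 12 markers at an unadjusted p under 0.05 were 11 to 15 over the alternatives, and 8 of the 12 (Acta2, Dcn, Hgf, Lhx2, Lrat, Sparc, Thy1 and Vim) stayed under 0.05 in all of them. Between tumour and adjacent liver the 0 markers past the threshold became 1 with a filter on dim genes, 1 with a random replicate block, 1 with 8 separate tumours (Sparc each time), 2 with the unnumbered tumour of mouse 121 (Hgf and Sparc) and 0 to 5 with a mouse left out. The fixed replicate block over the 4 paired mice changed no call of a marker, with 15 at an unadjusted p under 0.05. The 36 genes overall became 23 with quantile normalization, 181 with the dim filter, 206 and 0 with the random and fixed replicate block, 87 with 8 tumours, 157 with the unnumbered tumour, 8 with only the 2 groups and 5 to 743 with a mouse left out. Against control the 6 genes became 35 with the dim filter, 3 without an intensity trend, 24 with the random replicate block, 31 with 8 tumours, 33 with the unnumbered tumour, 15 without tumour 3 of mouse 121 (an alternative chosen after seeing the data) and 0 to 242 with a mouse left out. The 0 markers against control became 1 with the dim filter (Lhx2), 1 with only the 2 groups (Acta2) and 0 to 2 with a mouse left out. Between adjacent and control liver the 0 genes became 0 to 1 with a mouse left out. The 2 markers at an unadjusted p under 0.05 there became 0 with the random replicate block and with 8 tumours, 1 with the unnumbered tumour, 1 without tumour 3 of mouse 121 (Lhx2 both times) and 1 to 2 with a mouse left out. These were not always Lhx2 and Ecm1: they were Angptl6 and Ecm1 without control 10, Rgs5 and Tgfb1 without control 12, Acta2 and Ecm1 without adjacent liver 123, and Acta2 alone (higher) without adjacent liver 81. The causes of these shifts were not tested, beyond the fewer genes tested under the dim filter (12864) and the fewer samples of the fits that leave some out. With 3 to 6 mice a group, signal near the array median, as in Gfap, Fap, Cnn1 and Ngfr, limits what differences could be seen. The tumour medians of Lhx2 (4.44), Hand2 (4.33) and Pdgfra (4.05), which were lower in tumours, also lay near or under the median of all values (4.43).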
